A study of Mus musculus with 22 samples.

Results

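The step from large Pro-B to large Pre-B cells was followed in adult mice that expressed LIN28B. These were the 4 tet-LIN28B mice from which both stages were sequenced, which gave 8 of the 22 libraries of the series, and each large Pre-B library was set against the large Pro-B library of the same mouse. Another tet-LIN28B mouse gave large Pro-B cells alone and had no pair. The mice carried Col1a tetO-LIN28B, a doxycycline-driven Flag-tagged human LIN28B cDNA, together with Rosa26 rtTA*m2, the doxycycline-dependent activator. The 3 control mice with both stages, 6 libraries, were littermates that carried Rosa26 rtTA*m2 without the LIN28B allele. All 7 mice received doxycycline chow at 200 mg/kg for 10 days, so the drug and the activator were common to both genotypes. Neither allele is restricted to B cells. RNA came from bone marrow cells sorted as CD93+ IgM-, among other markers, where cKIT+ cells of large forward scatter were taken as large Pro-B and cKIT- cells of large forward scatter as large Pre-B.

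As background, a Pro-B cell rearranges its immunoglobulin heavy chain genes, and a productive heavy chain pairs with the surrogate light chain, made of the products of Igll1 and the Vpreb genes, to form the pre-B cell receptor. Signals from this receptor and from interleukin 7 drive a burst of division in the large Pre-B cell, after which the surrogate light chain is lost and light chain genes are rearranged. The protein LIN28B, which fetal cells express and which binds RNA, blocks the maturation of let-7 microRNAs and contacts many messenger RNAs, and it is otherwise largely silent in adult B cell precursors.

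The sequences of 2 sets of regulatory sites come first, since the results on the surrogate light chain and on the let-7 targets refer back to them. Igll1, Vpreb1 and Vpreb2 fell together in large Pre-B cells, and the 250 bases before the RefSeq start of each gene (GRCm38.p6, 5′ to 3′ on the strand of the gene) hold an E-box, the letters CAGGTG or their reverse complement CACCTG, shown in capitals.
Igll1 at chr16:16863986-16864235, minus strand: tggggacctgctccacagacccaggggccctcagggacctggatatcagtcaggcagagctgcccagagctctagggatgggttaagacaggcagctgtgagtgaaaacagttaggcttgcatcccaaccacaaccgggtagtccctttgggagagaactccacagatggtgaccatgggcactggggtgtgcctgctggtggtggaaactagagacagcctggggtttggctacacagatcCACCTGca
Vpreb1 at chr16:16869256-16869505, minus strand: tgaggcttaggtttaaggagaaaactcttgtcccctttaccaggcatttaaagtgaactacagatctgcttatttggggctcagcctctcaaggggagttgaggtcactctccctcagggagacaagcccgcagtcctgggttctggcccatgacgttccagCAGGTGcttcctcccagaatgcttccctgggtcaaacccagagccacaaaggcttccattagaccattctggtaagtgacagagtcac
Vpreb2 at chr16:17980315-17980564, plus strand: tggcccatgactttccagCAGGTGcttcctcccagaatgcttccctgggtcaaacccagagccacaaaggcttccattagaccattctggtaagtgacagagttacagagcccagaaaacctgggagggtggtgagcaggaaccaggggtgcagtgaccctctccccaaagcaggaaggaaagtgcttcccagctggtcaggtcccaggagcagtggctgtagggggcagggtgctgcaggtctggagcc
The match begins 8 bases before the start in Igll1, 88 in Vpreb1 and 232 in Vpreb2. In GENCODE M21 the spans of Vpreb1 (chr16:16868403-16870843) and Vpreb3 (chr10:75943057-75949657) cover their whole windows. That of Vpreb2 (chr16:17980428-17981273) covers part of its window, so windows and distances depend on the start chosen. The same search on both strands found a match in 17.2% of 32851 promoter windows and in 18.3% of the 10895 tested genes with a window. The window of Vpreb3, which was not called lower, holds no match. Over their full RefSeq windows, which run from 250 bases before to 50 after each start, Vpreb1 and Vpreb2 share 153 of 156 aligned bases (98.1%), and reads of these near-identical genes may have been divided between them, so their separate values are uncertain.

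Of the let-7 family, let-7a-5p and let-7g-5p are shown with the seed, bases 2 to 8, in capitals (RefSeq, GRCm38.p6).
let-7a-5p at chr13:48538239-48538260, minus strand: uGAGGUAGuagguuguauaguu
let-7g-5p at chr9:106178846-106178867, plus strand: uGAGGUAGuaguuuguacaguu
The 10 mature members of the let-7 and miR-98 family named in the table, and 1 other miRNA, carry this seed. The 7-base complement of the seed, CTACCTC, lies behind the stop codon of Arid3a, Arid3b and Ccr7, the 3 members of a list of known let-7 targets that rose. Each window is given 5′ to 3′ on the gene strand (GRCm38), with the match in capitals.
Arid3a at chr10:79953896-79953917, plus strand: aggcaagtttctttCTACCTCa
Arid3a at chr10:79954723-79954744, plus strand: gaaaaaactgttttCTACCTCt
Arid3b at chr9:57790361-57790382, minus strand: atttcaataaagctCTACCTCt
Ccr7 at chr11:99144785-99144806, minus strand: catcccacttataaCTACCTCa
Such a match was present in 10.8% of 13036 tested genes with a coding transcript and in 47 of the 59 tested members of the let-7 list (79.7%), which was compiled in part for these sites.

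The 8 libraries held 17.0 to 30.4 M reads assigned to genes, and the 6 control libraries 15.9 to 28.1 M. Values are the deposited normalised read counts rescaled to 1 common normalisation over both stages. Each stage was normalised in a table of its own, so stage and table cannot be told apart. In bulk RNA, fewer cells of a type and less RNA per cell cannot be told apart either. The large Pro-B library of tet-LIN28B mouse 3 stood apart by the number of genes detected (31881, against 17931 to 28434 in the other 13 libraries), and that of mouse 4 by transcript length, with the longest of 4 equal groups of genes at -0.69 and the shortest at 0.35 (log2, medians against the other tet-LIN28B Pro-B libraries). Counts below are therefore also given without single mice where these move them by more than 1.5 times. Lin28b checked the labels: the 8 tet-LIN28B libraries held 44.3 to 210.1 normalised counts and the 6 control libraries 4.34 to 33.3, with no overlap. Within the tet-LIN28B mice, Lin28b was 52.6, 67.9, 210.1 and 79.0 in large Pro-B and 44.3, 65.8, 179.6 and 67.9 in large Pre-B cells of mice 1 to 4 (log2 difference -0.18, SE 0.49, adjusted p = 0.88), so that expression of LIN28B was of the same order at both stages of each mouse. The transgene is a human cDNA, and its reads count here as far as they matched the mouse gene.

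Across 16301 tested genes, 795 were higher in large Pre-B cells of the tet-LIN28B mice (4.88%) and 762 were lower (4.67%) at a Benjamini-Hochberg adjusted p under 0.05 in limma. Of these, 496 rose and 582 fell by more than 2-fold. The test picks genes in which mice move alike, and as a description 794, 795, 795 and 794 of the 795 higher genes were positive and 762, 761, 762 and 759 of the 762 lower genes negative in mice 1 to 4. The 4 libraries of one stage did not overlap with the 4 of the other in 1194 of the 1557 called genes, against 12.8% of all genes tested. With equal library totals in place of the median of ratios, 537 genes were higher and 1068 lower, so the share of higher calls moved from 51.1% to 33.5%. Without the pairing by mouse, 450 were higher and 490 lower. Leaving out mouse 1, 2, 3 or 4 gave 468, 389, 606 and 1218 higher and 336, 375, 622 and 1114 lower genes, and without both mice 3 and 4 there were 609 and 691.

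The correlation of the mice's Pre-B minus Pro-B differences over 16301 genes, which are not independent replicates, was 0.40 between mice 1 and 2, 0.38 between mice 2 and 4 and -0.17 between mice 3 and 4. The difference also moved with transcript length: its median in mouse 4 went from -0.42 in the shortest of the 4 groups of genes to 1.0 in the longest, against -0.06 to 0.04 in mouse 1, -0.02 to 0.21 in mouse 2 and -0.11 to -0.31 in mouse 3. Removing this trend from each library left 775 higher and 679 lower genes.

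The genes of the Pro-B stage and of earlier progenitors fell. Of 26 such genes, 10 were lower and 3 higher, with a median log2 difference of -0.82 against 0.06 over all genes, and the median lay between -1.01 and -0.84 in each of the 4 mice. In the control mice 10 were lower and 2 higher, against 3.40% and 2.28% of all genes, with a median of -0.87. Without single mice, 8 to 12 were lower.

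Dntt (chr19:41029275-41059525, mm10), the terminal transferase that adds N nucleotides to heavy chain joints and is sparse in fetal B cells, fell the most firmly. It stood at 29889.7, 30755, 27378 and 23326 normalised counts in large Pro-B and at 592, 1286, 807 and 617 in large Pre-B cells of mice 1 to 4. Every Pre-B library lay far below every Pro-B library, a 33.7-fold lower mean (log2 difference -5.14, SE 0.22, adjusted p = 7.6e-07). In control mice Dntt went from 53232, 52421 and 31189 to 1141, 462 and 462 (log2 difference -6.15, SE 0.25). The fall was smaller by 1.01 in the tet-LIN28B mice (95% interval 0.27 to 1.74, unadjusted p = 0.011), which did not pass adjustment over all genes (adjusted p = 0.93).

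Genes of multipotent progenitors went the same way. Flt3, a cytokine receptor of early progenitors, went from 687, 629.6, 829 and 394 to 49.3, 70.7, 31.0 and 67.2 (log2 difference -3.54, SE 0.37, adjusted p = 1.4e-04). Erg, an ETS transcription factor of stem cells and early B cell progenitors, went from 499, 548, 495 and 224 to 43.4, 46.1, 46.9 and 21.4 (log2 difference -3.43, SE 0.31, adjusted p = 6.1e-05). The Erg libraries of the stages did not overlap, and the lowest Pro-B value was that of mouse 4. In control mice Erg fell by 5.02 on the log2 scale, and the difference of 1.59 (95% interval 0.54 to 2.63, unadjusted p = 0.0064) did not pass adjustment (adjusted p = 0.93). Meis1, Lmo2 and Hhex, which serve in stem and progenitor cells, fell by 1.75, 1.67 and 0.93, and Satb1, a chromatin organiser of lymphoid cells, by 1.36. Kit fell by 4.66, from 364 to 1572 counts down to 23.0 to 51.1, but its protein separated the gates, so this value describes the sort. Other members moved up: Cd24a, a surface marker gained by B cell precursors, rose 3.5-fold (log2 difference 1.91, SE 0.26, adjusted p = 7.3e-04), with mouse 4 furthest at 3.17.

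Beside Dntt, the genes named for the strongest fall were Mmrn1, Fxyd6, Fam69b, Emp1, Ifitm3, Eya2 and Mpo. Mmrn1, an extracellular matrix protein, went from 1538, 1700.2, 951 and 632 to 34.3, 21.5, 45.1 and 7.63 (44.4-fold lower mean, adjusted p = 4.6e-05). Emp1, a membrane protein, went from 684 to 1088 counts down to 15.9 to 48.6 (adjusted p = 7.5e-05). Mpo, the myeloperoxidase of granulocyte precursors, went from 118, 122, 252 and 583 to 51.8, 0, 1.77 and 1.53 (log2 difference -5.62, adjusted p = 0.0092, and 0.057 without mouse 2). Lyz2, the myeloid lysozyme, fell with it, from 610.3 to 839.4 down to 11.45 to 35.09 counts. These were 2 of 9 tested neutrophil and myeloid markers (1 without mouse 2), whose summed counts were 1112.9 to 1450.7 in large Pro-B and 203 to 356.8 in large Pre-B libraries, while S100a8 was at most 1.77 in all 8. The part of myeloid cells in the other falls was not tested.

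**Figure D1:**
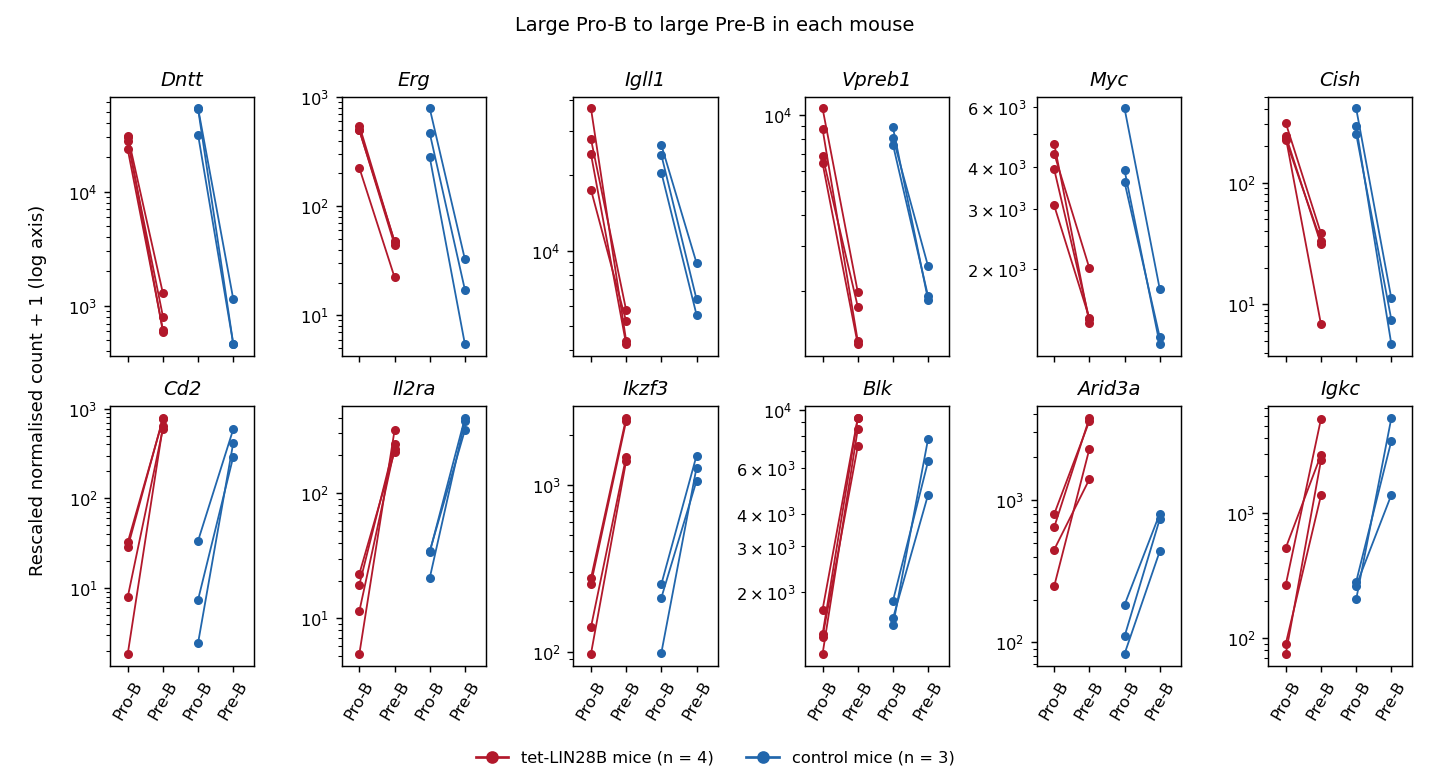
Rescaled normalised read counts plus 1 (log axis) of 12 genes in large Pro-B and large Pre-B cells, with 1 line per mouse (red, 4 tet-LIN28B mice; blue, 3 control mice). Dntt, Erg, Igll1, Vpreb1, Myc and Cish go down and Cd2, Il2ra, Ikzf3, Blk, Arid3a and Igkc go up in each tet-LIN28B mouse, and Arid3a lies higher in tet-LIN28B than in control mice at both stages.

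Genes of the surrogate light chain fell while genes of the signalling side of the pre-B cell receptor rose. Of 33 genes of the receptor and its proximal signalling, 13 were higher and 4 lower in the tet-LIN28B mice (median log2 difference 0.66 against 0.06 over all genes), and 8 were higher and 4 lower in the control mice (median 0.26). The median over the list was 0.20, 0.40, 0.58 and 1.68 in mice 1 to 4, so that mouse 4 stood above the others. Without single mice 12 to 14 were higher and 4 or 5 lower.

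Igll1, the lambda5 part of the surrogate light chain, went from 24241, 27818, 17476 and 36868 to 4232, 5782, 5227 and 4368 normalised counts. Each mouse lost most of its Igll1 RNA, a 5.43-fold lower mean (log2 difference -2.40, SE 0.20, adjusted p = 2.9e-05). Vpreb1, which encodes the V-like part, went from 8792, 10616, 6860.0 and 6424 to 1263, 1978, 1729 and 1226, also by -2.40 (SE 0.17, adjusted p = 1.4e-05), and its copy Vpreb2 by -2.58 (SE 0.24, adjusted p = 6.2e-05). The stages did not overlap for any of the 3 genes. In control mice the log2 differences were -1.79, -1.99 and -2.65, and no difference between genotypes passed (95% intervals of the difference -1.27 to 0.04, -0.97 to 0.16 and -0.71 to 0.87). Vpreb3, a partner of the light chain in the secretory pathway rather than of the surface complex, kept overlapping values of 3434 to 4764 and 3931 to 6537 (log2 difference 0.33, SE 0.16, adjusted p = 0.24). Of the 4 genes searched, the 3 that fell hold the E-box shown above in the window before their RefSeq start, as do 18.3% of the tested genes with a window. The matches of Vpreb1 and Vpreb2 lie in near-identical sequence and are not separate. A link between the match and the fall was not tested.

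The heavy chain moved the other way. Ighm, the constant region of the mu chain, rose from 80230.5, 81762, 52467 and 53697 to 178179, 191225, 155960.0 and 176432, 2.62-fold (log2 difference 1.42, SE 0.17, adjusted p = 3.1e-04). Of 96 heavy chain variable segments 22 passed the filter on low values. Of these, 10 were higher and 0 lower by limma (median 3.04, with 22 of 22 positive, and 5 and 4 higher without mouse 1 and mouse 2), and in control mice 4 were higher and 0 lower (median 2.54). A segment passes this filter through the clones that use it, and close segments share reads, so the count is a description.

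Kinases and a RAS activator behind the receptor rose. Blk, a Src family kinase, went from 1716, 1379.7, 1349.1 and 1159.9 to 9337, 9318, 7268 and 8459 (6.13-fold; log2 difference 2.62, SE 0.17, adjusted p = 8.2e-06). The 4 mice gave nearly the same step, and in control mice the log2 difference was 1.92 (difference 0.71, 95% interval 0.14 to 1.28, unadjusted p = 0.019, adjusted p = 0.93). Lyn, another Src family kinase, rose by 1.87 (SE 0.17, adjusted p = 6.2e-05) and Syk, the kinase that binds the receptor tails, by 1.75 (SE 0.30, adjusted p = 0.0040), where Pro-B mouse 4 was low at 1445 against 4890.2 to 9586. Rasgrp1, an activator of RAS, went from 46.1, 9.16, 40.8 and 10.1 to 2280.3, 1942, 762 and 1291 (log2 difference 6.06, SE 0.52, adjusted p = 4.3e-05). Rasgrp1 was thus close to undetected in large Pro-B cells and well expressed in large Pre-B cells of each mouse. Negative regulators moved in the same direction, with Cd22 at 2.54, Cd72 at 2.12 and Dok3 at 2.15. Fyn, a Src family kinase, fell by 1.71. The adaptor Blnk (-0.46, adjusted p = 0.080, and 0.042 without mouse 4) and the kinase Btk (0.70, adjusted p = 0.071) did not pass.

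Of 19 recombination genes 3 were higher and 1 lower, against 4.88% and 4.67% of all genes (median 0.32; 5 higher without mouse 4). Rag2, of the recombinase, stood at 3375, 3187, 3445 and 2512 in large Pro-B and 2969, 2162, 3409 and 2842 in large Pre-B cells (log2 difference -0.15, SE 0.17, adjusted p = 0.66), and Rag1 differed by 0.04 (SE 0.34, adjusted p = 0.96). The values of both genes overlapped between stages. The difference between genotypes was 0.38 for Rag2 (95% interval -0.17 to 0.93) and -0.05 for Rag1 (95% interval -1.20 to 1.10). Polm, a polymerase related to Dntt that acts in light chain joining, went from 59.8, 94.6, 7.81 and 70.6 to 1850.0, 2164, 1184 and 1648 (29.4-fold; log2 difference 5.26, SE 0.59, adjusted p = 2.0e-04). Its rise ran against the fall of Dntt in each mouse. Lig4, the ligase of end joining, rose 2.78-fold (log2 difference 1.56, SE 0.24, adjusted p = 0.0016).

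Light chain and late pre-B genes had the highest share of called members among the lists that are not cell type markers. Of 42 such genes, 27 were higher and 0 lower by limma in the tet-LIN28B mice (median 2.07; 22 to 27 higher without single mice, and 1 lower without mouse 3), and 21 were higher and 1 lower in the control mice (median 1.51). The list median was 1.25, 1.64, 1.78 and 2.82 in mice 1 to 4.

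Il2ra, the CD25 chain of the interleukin 2 receptor and a surface marker of Pre-B cells, went from 21.6, 17.6, 10.4 and 4.20 to 213, 246, 226 and 316 (18.6-fold; log2 difference 4.30, SE 0.45, adjusted p = 1.4e-04). Cd2, an adhesion receptor that marks the cytoplasmic mu-positive stage in mice, went from 27.4, 31.3, 6.95 and 0.84 to 785, 759, 597 and 637 (41.8-fold; adjusted p = 1.8e-04). Both genes were near the bottom of the range in each Pro-B library and did not overlap between stages. Igkc, the kappa constant region, went from 89.4, 528, 267 and 74.0 to 1388, 2925, 5676 and 2644 (13.2-fold; log2 difference 3.99, SE 0.41, adjusted p = 1.3e-04). None of the 5 kappa variable segments that passed the filter, of 46, was called by limma, although 5 of 5 were positive. H2-Aa, a class II chain of antigen presentation, went from 205, 217, 184 and 178 to 2218, 2568, 1648 and 2856 (11.8-fold; log2 difference 3.53, SE 0.19, adjusted p = 2.7e-06), and Ciita, the class II transactivator, rose by 4.66, Cd74, the invariant chain, by 3.38 and H2-Eb1 by 3.73. The surface enzyme Cd38 rose 8.89-fold (log2 difference 3.16, SE 0.20, adjusted p = 6.9e-06). Ms4a1, the CD20 gene, rose by 2.43 (SE 0.29, adjusted p = 3.7e-04) against 1.19 in control mice, a difference of 1.24 (95% interval 0.26 to 2.22, unadjusted p = 0.018) that did not pass adjustment (adjusted p = 0.93). Other genes at the top of the list of rises were Fcmr, the receptor for IgM, at 0 to 26.7 and then 202 to 331 counts, and Myzap, at 0 to 25.2 and then 263 to 426.

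Markers of other B-lineage stages moved beside this group. Of 13 immature and mature B markers 7 were higher and 0 lower by limma, with summed counts of 8562 to 11025 in large Pro-B and 23785 to 34873 in large Pre-B libraries. These markers include H2-Aa, Cd74, Ms4a1, Cd22 and Ccr7, which are also given under other lists, so the count is not separate from theirs. Of 6 tested plasma cell markers 5 were higher, with sums of 2395 to 4413 and 11667 to 15409, to which Slamf7 contributed 1521 to 3575 and then 9263 to 10900 counts. Jchain, the joining chain of secreted IgM and IgA, went from 0, 83.9, 80.7 and 0.84 to 513, 1321, 2683 and 1721 (log2 difference 6.97, SE 0.84, adjusted p = 3.5e-04). Igha, the IgA constant region, went from 0.72, 0, 3.47 and 0.84 to 1994, 7509, 5977 and 5397 (adjusted p = 7.6e-05). In control mice Igha went from 0, 31.8 and 712 to 4866, 24394 and 5730.4. The unpaired tet-LIN28B large Pro-B library, which is outside the test, held 1888 counts of Igha and 253 of Jchain. The plasma cell regulator Prdm1 was at 0 to 17.36 and 6.194 to 65.17 counts, and Tnfrsf17, the BCMA gene, was at 0 in 4 of 4 Pro-B libraries and at 1.671 to 6.106 in Pre-B libraries. The part of plasma cells in these rises was not tested.

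**Figure D2:**
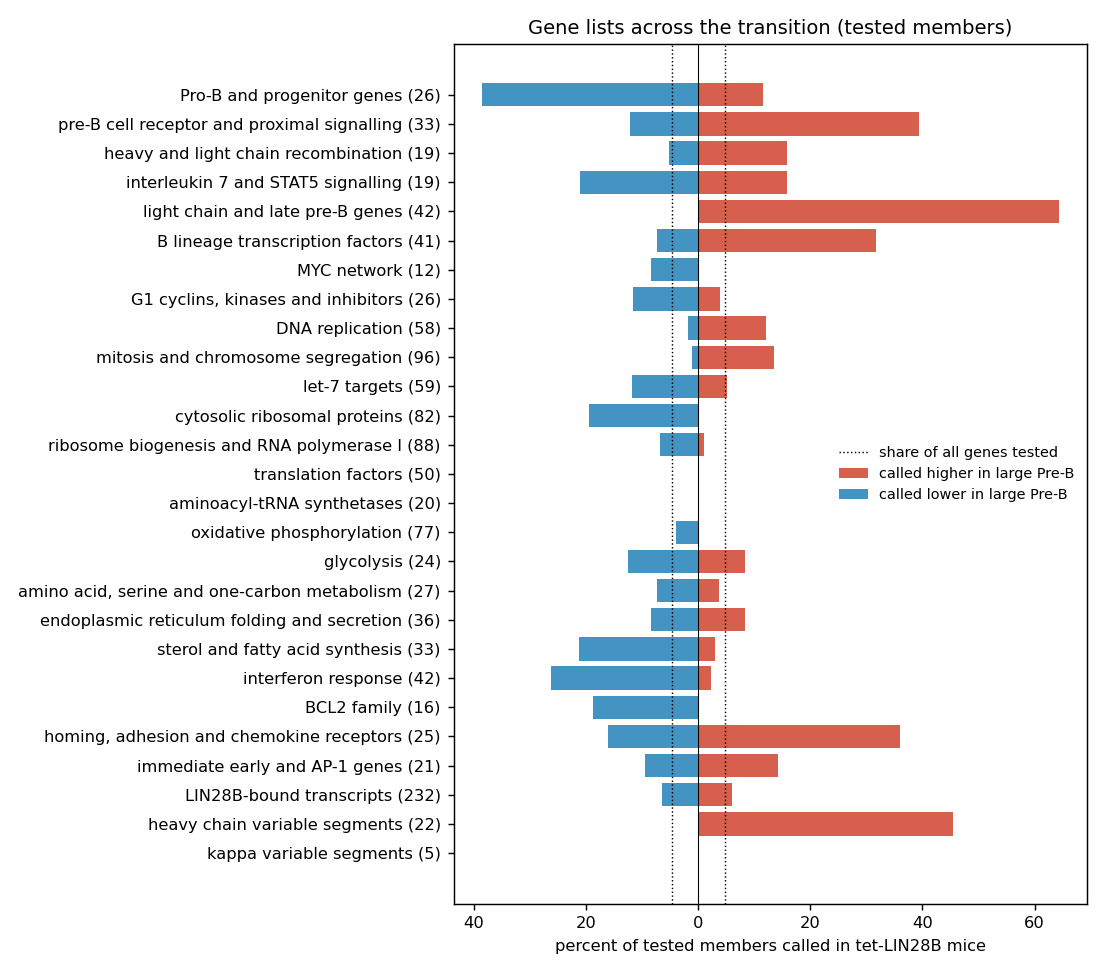
Percent of the tested members of each gene list that passed the test in the tet-LIN28B mice, higher or lower in large Pre-B than in large Pro-B cells, with dotted lines at the share of all tested genes (4.88% higher, 4.67% lower). Light chain and late pre-B genes have the most members higher (27 of 42), and Pro-B and progenitor genes (10 of 26) and interferon response genes (11 of 42) are mostly lower among those called.

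Of 41 transcription factors of the B lineage, 13 were higher and 3 lower (median 0.44; 11 to 14 higher without single mice, and 5 lower without mouse 4), against 9 and 4 in the control mice (median 0.23). Ikzf3, or AIOLOS, which acts in the exit from the dividing pre-B stage, went from 274, 254, 139 and 95.8 to 2514, 2415, 1472 and 1392 (10.2-fold; log2 difference 3.42, SE 0.24, adjusted p = 1.4e-05). Irf4, which opens the kappa locus, went from 1836, 1630.0, 1299.6 and 353 to 7509, 6025, 4401 and 5463 (log2 difference 2.41, SE 0.31, adjusted p = 6.4e-04). The 4 Pre-B libraries lay above the 4 Pro-B libraries for both genes, and mouse 4 started lowest. Spib, an ETS factor of later B cells, rose by 2.56 (SE 0.26, adjusted p = 1.0e-04), Bach2, a repressor active at the pre-B checkpoint, by 1.90 (SE 0.23, adjusted p = 3.3e-04), and Tcf12, the E protein HEB, by 1.41 (SE 0.16, adjusted p = 2.7e-04). The 3 lower were Erg, Lef1 and Bcl11a. Lef1, a WNT pathway factor of dividing Pro-B cells, went from 9203, 9083, 6309.6 and 6801 to 2899, 4028, 3001 and 2466 (log2 difference -1.34, SE 0.16, adjusted p = 3.5e-04). Bcl11a differed by -0.84 (SE 0.19, adjusted p = 0.019, but 0.067 without mouse 1 and 0.075 without mouse 3). The factors that set B identity stayed short of the threshold, with Pax5 at 0.71 (SE 0.23, adjusted p = 0.073), Ebf1 at -0.54 (SE 0.21, adjusted p = 0.13) and Foxo1 at -0.55 (SE 0.19, adjusted p = 0.098, and 0.039 without mouse 3).

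Interleukin 7 receptor RNA rose, while other genes of interleukin 7 and STAT5 signalling moved in both directions. Of 19 genes 3 were higher and 4 lower, against 4.88% and 4.67% of all genes (median -0.28). The number lower was 2 without mouse 1 or mouse 2 and 6 without mouse 4. In the control mice 2 were higher and 6 lower (median -0.66). Il7r went from 2506, 2599, 3209 and 1951 to 5267, 4296, 5553 and 5998, 2.06-fold (log2 difference 1.05, SE 0.20, adjusted p = 0.0074). Cish, a STAT5 target that feeds back on cytokine receptors, went from 233, 241, 306 and 224 to 5.85, 30.1, 37.2 and 32.1 (log2 difference -3.46, SE 0.46, adjusted p = 6.7e-04). Mouse 1 fell furthest, and Pro-B and Pre-B values lay far apart. In control mice the log2 difference was -5.40, to 6.48, 10.2 and 3.70 counts, and the difference of 1.94 (95% interval 0.42 to 3.47, unadjusted p = 0.017) did not pass adjustment (adjusted p = 0.93). Socs2, of the same family, differed by -1.18 (SE 0.24, adjusted p = 0.011, and 0.053 without mouse 2), whereas Socs1 differed by 1.89 (SE 0.44, adjusted p = 0.021, and 0.092 and 0.093 without mouse 1 and mouse 2). Pim2, a survival kinase, rose by 1.13 (SE 0.19, adjusted p = 0.0037). Bcl2, the survival factor, differed by -1.48 (SE 0.36, adjusted p = 0.024, but 0.083 and 0.088 without mouse 1 and mouse 3). Bcl2l1, its relative, stood at 0.82 to 0.91 in mice 1 to 3 and at -0.01 in mouse 4 (adjusted p = 0.099, and 0.0051 without mouse 4).

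Myc, the growth regulator, fell in every mouse, from 3928, 4367, 3073 and 4669.8 to 1421, 2010.4, 1431 and 1389 (2.57-fold lower; log2 difference -1.36, SE 0.16, adjusted p = 3.1e-04), and by 1.66 in control mice. It was the 1 member of the 12-gene MYC network that was called (1 more was higher without mouse 4). Among 26 G1 regulators 1 was higher and 3 lower (6 higher without mouse 4), against 4.88% and 4.67% of all genes. Cdk6, the kinase partner of D cyclins, went from 3101, 2422, 2621 and 4049.5 to 1314, 1048, 1234 and 1049 (log2 difference -1.37, SE 0.18, adjusted p = 6.4e-04). Cdkn1a, a cyclin kinase inhibitor, fell by 1.32 (SE 0.20, adjusted p = 0.0016) and Btg2, an antiproliferative factor, rose by 1.60 (SE 0.17, adjusted p = 1.4e-04). Ccnd3, the D cyclin that large Pre-B cells need, overlapped between stages, at 24593 to 45674 and 28996 to 42676 (log2 difference 0.07, SE 0.16, adjusted p = 0.85). Ccnd2 differed by -0.57 (adjusted p = 0.048), which rose to between 0.077 and 0.20 without tet-LIN28B mouse 1 or 2 or any of the 3 control mice.

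Replication and mitosis genes leaned upward by a small step, and the number called depended on single mice. Of 58 replication genes 7 were higher and 1 lower (median 0.31, 49 positive), and 3, 0, 2 and 21 were higher without mouse 1, 2, 3 or 4 and 3, 3 and 4 without control mouse 1, 2 or 3. In control mice 0 were higher and 1 lower by limma, with a median of 0.22 and 49 positive. Mcm4, a subunit of the replicative helicase, went from 11296, 10793, 9155 and 8328 to 16396, 16714, 13827 and 14786 (log2 difference 0.65, SE 0.13, adjusted p = 0.012, and 0.059 without mouse 2). Tyms, thymidylate synthase, fell instead, by 1.25 (SE 0.20, adjusted p = 0.0021). Of 96 mitosis genes 13 were higher and 1 lower (median 0.32), and 5, 4, 6 and 26 were higher without mouse 1, 2, 3 or 4 and 6, 5 and 8 without the control mice. In control mice 1 was higher and 1 lower (median 0.23). Removal of the length trend left 3 replication and 8 mitosis genes higher. Nek2, a centrosome kinase, went from 5981, 6218, 3776 and 3121 to 13398, 12472, 8992 and 10210.0 (log2 difference 1.28, SE 0.16, adjusted p = 4.0e-04). Mki67, the proliferation marker, stood at 20634, 26665, 18800.3 and 7058 in Pro-B and 27597, 26296, 23348 and 24396 in Pre-B cells (log2 difference 0.63, SE 0.25, adjusted p = 0.14), and Ccnb1, the mitotic cyclin, differed by 0.02 (SE 0.19, adjusted p = 0.96). Both genes were abundant at both stages, in which large cells had been gated.

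Let-7 targets were called in both directions. Of 59 tested members 3 were higher and 7 lower (median -0.07; 7 higher without mouse 4, 3 lower without mouse 1 or mouse 2, and 4 lower without control mouse 2 or 3), near the 4.88% higher called among all genes and above the 4.67% lower. In the control mice 4 were higher and 5 lower (median 0.15). Arid3a, a DNA-binding factor of fetal-type B lymphopoiesis with 2 of the sites shown above, went from 796, 643, 447 and 247 to 3590.4, 3769, 1399.9 and 2286 (5.18-fold; log2 difference 2.39, SE 0.25, adjusted p = 1.3e-04). In control mice it went from 183, 109 and 82.0 to 802, 733 and 435, by 2.42. The log2 steps differed by -0.03 (95% interval -0.85 to 0.80), while the levels of the genotypes did not overlap at either stage. Arid3b, its paralogue with 1 site, rose by 2.07 (SE 0.31, adjusted p = 0.0016) and by 1.59 in control mice. Ccr7, a chemokine receptor with 1 site, went from 942, 1016, 554 and 629 to 4400.1, 5003, 3468 and 3899.9 (log2 difference 2.45, SE 0.16, adjusted p = 1.0e-05), against 1.76 in control mice (difference 0.69, 95% interval 0.14 to 1.24, unadjusted p = 0.018, adjusted p = 0.93). Gatm, an enzyme of creatine synthesis with 1 site, fell by 2.81 (SE 0.53, adjusted p = 0.0065), and Myc and Cdk6, with no match to these letters, fell as given above. Hmga1 differed by 0.45 (SE 0.16, adjusted p = 0.096, and 0.0038 without mouse 4), and Igf2bp3, an RNA-binding protein of fetal cells, by 0.05 (SE 0.23, adjusted p = 0.94).

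Ribosomal protein transcripts were lower in large Pre-B cells, by a call that depended on which mice entered. Of 82 cytosolic ribosomal protein genes 16 were lower and 0 higher by limma, the median was -0.58 and 4 were positive, while in control mice 0 were called in either direction, with a median of -0.24 and 7 positive. The list median was -0.36, -0.22, -0.73 and -1.0 in tet-LIN28B mice 1 to 4 and -0.43, -0.42 and 0.08 in the control mice. The number lower was 1, 5, 0 and 23 without tet-LIN28B mouse 1, 2, 3 or 4, 6, 8 and 11 without control mouse 1, 2 or 3, and 4 once the length trend was removed. Rps19, of the small subunit, stood at 1805, 2392, 4071 and 2912 in Pro-B and 1044, 1791, 2396 and 1213 in Pre-B cells (log2 difference -0.81, SE 0.19, adjusted p = 0.024, but 0.083 and 0.061 without mouse 1 and mouse 3). Each mouse was lower in Pre-B cells, but the ranges of the stages overlapped. Rpl23, Rpl36 and Rps9 differed by -0.59, -0.88 and -0.40 and did not pass (adjusted p = 0.18, 0.057 and 0.18, with Rpl36 at 0.033 without mouse 4). The difference between genotypes was -0.28 in the median over the list, and 2 members had an unadjusted p under 0.05.

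Ribosome biogenesis genes gave 6 lower and 1 higher of 88 (median -0.24; 2 lower without mouse 1 or mouse 2, and 2 higher without mouse 4), against 4.67% lower and 4.88% higher of all genes, and in the control mice 4 lower and 1 higher (median -0.37). Noc2l, a nucleolar protein, went from 7494, 8123, 4613 and 8204 to 3141, 4842, 2548 and 2109 (log2 difference -1.20, SE 0.24, adjusted p = 0.0087), and Ddx54, an RNA helicase of the nucleolus, rose by 1.05 (SE 0.16, adjusted p = 0.0015). Of 50 translation factors 0 were called by limma (median -0.07), nor was any of 20 aminoacyl-tRNA synthetases (median 0.06). Npm1, a nucleolar chaperone, stood at 8589.9, 9389, 15609 and 33734 in Pro-B and 8039.8, 7115, 12602 and 9939 in Pre-B cells (log2 difference -0.64, SE 0.23, adjusted p = 0.11), with mouse 4 highest in Pro-B cells.

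The study named 238 transcripts as bound to LIN28B in cultured B cell precursors of this mouse line. Of the 232 tested, 14 were higher and 15 lower in the tet-LIN28B mice (median -0.20), shares near the 4.88% and 4.67% of all genes, and 6 were higher and 2 lower in control mice (median -0.05). These counts moved with single mice, to 7, 9, 10 and 28 higher and 5, 7, 9 and 19 lower without mouse 1, 2, 3 or 4, 9 to 11 higher and 10 or 11 lower without single control mice, and 6 lower with the length trend removed. The list median was 0.00, -0.08, 0.02 and -0.72 in mice 1 to 4, so that its lean came from mouse 4. Members that rose in each mouse were Ralgps2, a RAL exchange factor, from 602, 475, 591 and 725 to 3342, 3033, 3318 and 3184 (5.38-fold; log2 difference 2.44, SE 0.19, adjusted p = 2.1e-05), and Atp6ap1, a subunit of the vacuolar proton pump, by 1.59 (SE 0.15, adjusted p = 7.5e-05). Vpreb1, also a member, fell as given above.

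**Figure D3:**
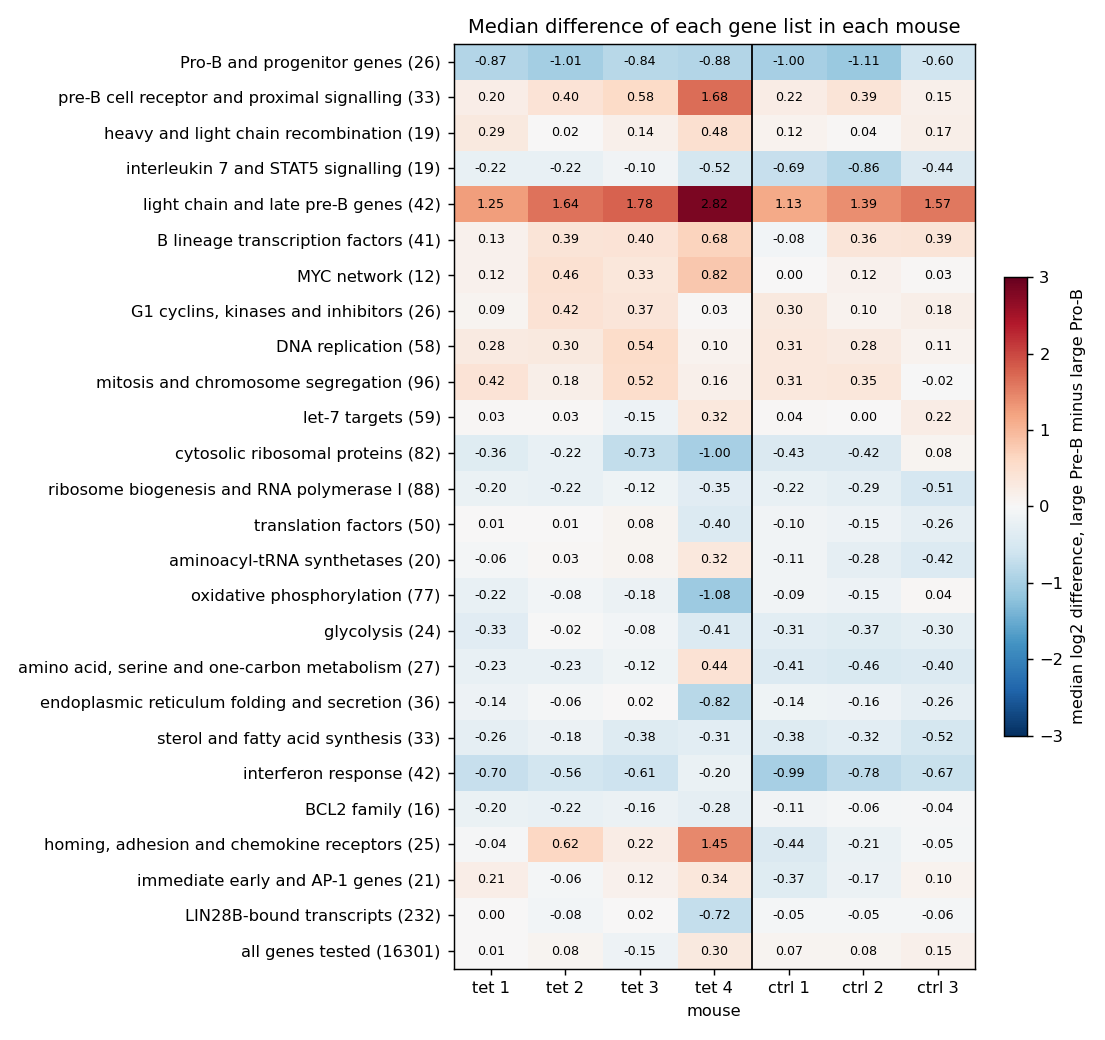
Median log2 difference, large Pre-B minus large Pro-B, of the tested members of each gene list (vertical axis) in each of 4 tet-LIN28B and 3 control mice (horizontal axis), on a colour scale from lower to higher. Pro-B and progenitor genes are negative and light chain and late pre-B genes positive in all 7 mice, and tet-LIN28B mouse 4 has the lowest ribosomal protein (-1.0) and oxidative phosphorylation (-1.08) medians.

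Interferon response genes were lower in both genotypes. Of 42, 11 were lower and 1 higher in the tet-LIN28B mice (median -0.46; 5 lower without mouse 1 or mouse 2, and 2 higher without mouse 4), and 14 were lower and 0 higher by limma in the control mice (median -0.92). The median lay between -0.70 and -0.20 in the 4 tet-LIN28B mice. Ifitm3, a membrane restriction factor that is also high in progenitors, went from 199, 260.2, 235 and 275 to 1.67, 12.3, 13.3 and 6.87 (28.4-fold lower; log2 difference -4.93, SE 0.50, adjusted p = 1.1e-04). Usp18, which removes ISG15, went from 618, 649, 384 and 748 to 140.4, 197, 99.1 and 198 (log2 difference -1.93, SE 0.31, adjusted p = 0.0024), against -3.03 in control mice (difference 1.10, 95% interval 0.07 to 2.14, unadjusted p = 0.038, adjusted p = 0.93). Isg15 fell by 1.94, Irf7 by 1.12 and Ifi44 by 2.87. Samd9l was the member that rose, by 1.47 (SE 0.31, adjusted p = 0.012).

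The transition of the tet-LIN28B mice was then compared with that of the 3 control mice in the same fit. In control mice 371 genes were higher and 555 lower, and 305 and 405 of these were also called in the tet-LIN28B mice in the same direction. The shared genes were 38.4% of the tet-LIN28B and 82.2% of the control higher genes, and 53.1% and 73.0% of the lower genes. No gene was called in opposite directions, and 1545 of the 1557 genes called in the tet-LIN28B mice (99.2%) had the same sign in the control mice. The unequal counts come with unequal numbers of mice and with a spread that the fit shares between genotypes, and are no test of the genotypes. The control calls, 926 with all mice, were 2844 without tet-LIN28B mouse 4, so the shares above also depend on the tet-LIN28B libraries.

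In the test of the difference itself, 0 of 16301 genes passed in limma (0% called, smallest adjusted p = 0.93, 524 genes at an unadjusted p under 0.05), 0 in edgeR and 1, Arl5a, in DESeq2. The 524 genes were fewer than 1 in 20 of those tested, the share that this cutoff gives where no gene differs. The unadjusted p-values of single genes given above are to be read beside this. The median SE of a difference was 0.54, and its 95% interval reached 1.17 to either side in the median of all genes and 0.85 in the genes called. The smallest p belonged to Arl5a, an ARF-like GTPase, which stood at 457, 495, 469 and 911 in Pro-B and 487, 474, 554 and 456 in Pre-B cells of the tet-LIN28B mice. In control mice it went from 348, 423 and 588 to 1156, 1249 and 1774. The Pre-B values of the genotypes did not overlap, while the Pro-B values did (difference -1.81, 95% interval -2.55 to -1.07, unadjusted p = 2.0e-04, limma adjusted p = 0.93, DESeq2 adjusted p = 0.012). Irf5, an interferon regulatory factor, stood at 380.2 to 972 and 462 to 1087 in the tet-LIN28B mice and went from 1167, 887 and 1028 to 588, 453 and 443 in control mice (difference 1.18, 95% interval 0.59 to 1.77, unadjusted p = 0.0010). Pakap differed by 1.97 (95% interval 0.94 to 2.99) and Dgkh, a diacylglycerol kinase, by -4.00 (95% interval -5.98 to -2.01), the latter at 1.45 to 56.3 counts throughout. None of these passed adjustment in limma.

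**Figure D4:**
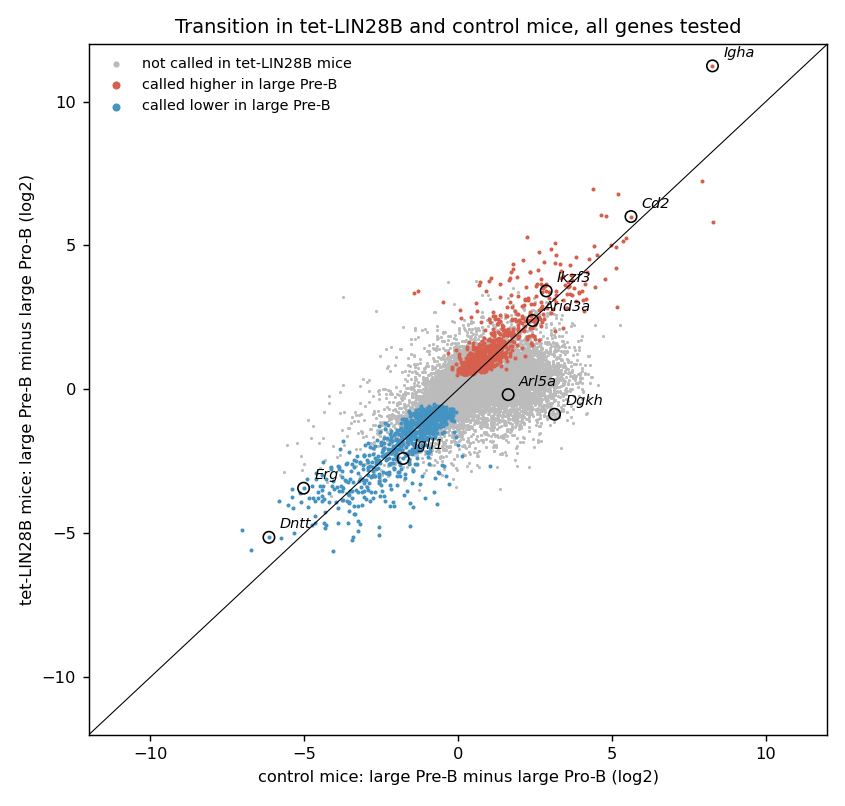
Log2 difference, large Pre-B minus large Pro-B, of each of 16301 tested genes in the control mice (x axis, n = 3) and the tet-LIN28B mice (y axis, n = 4), with 9 named genes ringed and labelled and a diagonal of equal differences. Each genotype has its own mice. Dntt and Erg lie above the diagonal in the lower left and none of the genes passed the limma test of the difference.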

How the data were processed

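Per the labels, sorted large Pro-B and large Pre-B cells were profiled by SMART-Seq v4 with Nextera XT libraries. These were sequenced on NextSeq and NovaSeq instruments. The submitters' processing notes name mm10, STAR 2.7.1, RSEM 1.28 and DESeq2, and the authors deposited normalised counts in 1 table per stage. Their annotation and the instrument of each library were not given in the sources used here. Deposited values are a normalised count signal. Dividing by the step of 1 read gave back whole reads for 100% of values within 0.1 read, which gave the depths. Columns of the authors' own comparisons, fold changes and p-values, were not used.

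The tables were joined on 35339 shared symbols, and 16 large Pro-B and large Pre-B libraries were rescaled by the median of ratios over 12634 genes above 0 in each. Genes with at least 10 in at least 3 of the 14 paired libraries were tested (16301) on log2(value + 1) with limma 3.58.1 (R 4.3.3, lmFit and eBayes with trend), with mouse as a block and a stage effect for each genotype, two-sided, Benjamini-Hochberg adjusted p under 0.05. A fold on this scale understates the change of low genes, and folds of means are given from the values themselves. Spans are from GENCODE M21, a GRCm38 annotation. Pairs come from the same mouse by label. Deviations of the libraries of 1 mouse from their group means correlated at 0.18, 0.48, -0.04 and -0.13 in tet-LIN28B mice 1 to 4 and at 0.32, 0.02 and 0.20 in control mice, and sex-linked transcripts matched within 7 of 7 mice. Of the tet-LIN28B mice 2 had Xist and 2 had Y-linked transcripts, and this match cannot tell mice of the same sex apart. In tet-LIN28B mice 1, 3 and 4 and control mouse 2 a library of another mouse correlated more highly (0.20, 0.64, 0.19 and 0.13), and pairs were kept because the labels give the same mouse. The fit was tested on simulated data. Mice are the replicates.

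The comparison, the gene lists and the named genes were chosen with earlier results of these data known. Named genes were a panel, up to 8 with the highest and 8 with the lowest difference among called genes without overlap and with a mean of at least 50 at 1 stage, up to 3 called members of each list in each direction with the smallest adjusted p, and 6 with the smallest p in the difference of genotypes. Further list members and markers were named after their values were seen. Lists are described by counts and medians without a set test. Alternatives were other pseudocounts, filters, scalings and tools (edgeR 4.0.16 and DESeq2 1.42.0 on recovered reads), no block, tet-LIN28B libraries alone and each mouse left out; omission of mice 3 and 4 and removal of the length trend were added after seeing the data. Cdkn2a was not analysed here, nor were the small Pre-B libraries.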

Additional observations from a re-analysis of the deposited data

Results flagged for a closer look

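Among the 148 named genes tested, the 4 tet-LIN28B mice were compared gene by gene for 1 mouse whose Pre-B minus Pro-B difference (log2) stood far from the other 3, by the ratio of its gap to the whole range against Dixon's 95% critical value. This marked 14 genes, where chance marks about 1 in 20 groups, and 10 of the 14 were marked for mouse 4, whose large Pro-B library also stood apart by transcript length.

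In mouse 4, Irf4 rose by 3.95 against 1.76 to 2.03 in the others, Cd24a by 3.17 against 1.30 to 1.59, Slc16a1 by 2.83 against 0.67 to 0.77, Ms4a1 by 2.78 against 2.30 to 2.33, Atf6 by 2.13 against 0.79 to 0.99 and Zfp36 by 1.99 against 0.98 to 1.04. In the same mouse, Bax stood at -1.95 against -0.58 to -0.33, Manf at -1.81 against -0.56 to -0.50, Eif5a at -1.46 against -0.12 to 0.15, and Bcl2l1 at -0.01 against 0.82 to 0.91. Polm stood at 7.07 in mouse 3 against 4.50 to 4.93, from 7.81 counts in its large Pro-B library. Cish stood at -5.09 in mouse 1 against -3.01 to -2.76. Lin28b stood at -0.04 in mouse 2 against -0.24 to -0.22, and Hmga2 at 0.00 in mouse 2, where both libraries held 0, against -2.60 to -2.20. The part of transcript length in the 10 genes marked for mouse 4 was not tested.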

How the results depend on the processing

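Of the 148 named genes 115 were called, 71 of them under each of the 20 alternatives, and 0 of the 115 changed sign. The numbers of genes higher (795) and lower (762) became 489 and 497 without the filter on low values, 361 and 358 with tet-LIN28B libraries alone, and 1261 and 1328 in DESeq2. Without the block that pairs stages by mouse they were 450 and 490, the control calls (926) fell to 609, and 35 named genes lost their call. Leaving out 1 mouse gave 389 to 1218 higher and 336 to 1114 lower genes, and both numbers were highest without tet-LIN28B mouse 4. The control calls were 1783 in DESeq2 and 2876 without tet-LIN28B mice 3 and 4. With 1 mouse left out they ranged from 296 (without control mouse 2) to 2844 (without tet-LIN28B mouse 4). The difference of genotypes gave 1 gene in DESeq2 and 0 in edgeR (482 at an unadjusted p under 0.05). With 1 mouse left out, 0 genes passed in limma, but the smallest adjusted p moved. It was 0.091 without tet-LIN28B mouse 4 (1480 genes at an unadjusted p under 0.05), 0.058 without control mouse 2 and 0.11 without control mouse 1. Without any other mouse it was at least 0.916.

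The genes that changed sign were 7 that had not been called. Rag1 moved to -0.05 with equal totals, -0.32 without mouse 4, -0.15 without mice 3 and 4 and -0.05 with the length trend removed. Pim1 moved under the first 3 of these to -0.01, -0.07 and -0.26. Ccnd3 was -0.02 with equal totals, -0.02 by quantile normalisation and -0.04 without mouse 2. Ccnb1 was -0.07 and -0.17 under those scalings, and -0.06 and -0.12 without mouse 1 and mouse 3. Igf2bp3 was -0.04 with equal totals, -0.01 without mouse 1 and -0.03 with the length trend removed. Arl5a was 0.09 without mouse 4 and 0.01 without mice 3 and 4, where Pakap was -0.04. With single mice left out, Rag1 ranged from -0.32 to 0.28, Pim1 from -0.07 to 0.37, Ccnd3 from -0.04 to 0.20, Ccnb1 from -0.12 to 0.22 and Igf2bp3 from -0.01 to 0.10. The cause of these shifts was not tested. Depth of 15.9 to 30.4 M reads limits genes near 0, for which 3 reads are worth 1.80 to 3.16 normalised counts, and intervals over 4 mice limit the rest.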

Other observations

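Receptors for homing and adhesion changed more than most lists in the tet-LIN28B mice. Of 25 tested, 9 were higher and 4 lower (median 0.35; 4 higher and 2 lower without mouse 1, and the same without mouse 2), and in control mice 4 were higher and 4 lower (median -0.32). Icam2, an adhesion ligand, went from 1004, 765, 752 and 324 to 1756, 1940.3, 1939.7 and 1664 (log2 difference 1.47, SE 0.22, adjusted p = 0.0017). Spp1, the secreted protein osteopontin, rose by 1.63 (SE 0.29, adjusted p = 0.0046) in the tet-LIN28B and by 1.82 in the control mice. Itgb1, the beta 1 integrin, fell by 0.99 (SE 0.17, adjusted p = 0.0040). Cxcr4, the receptor that keeps cells in the marrow, differed by 0.86 (adjusted p = 0.025), and its adjusted p was 0.051 to 0.087 without tet-LIN28B mouse 1, 2 or 3 or control mouse 1. Cd36, a fatty acid and lipoprotein receptor, went from 1051, 1209.5, 748 and 772 to 3163, 2858, 2068 and 2389 (log2 difference 1.48, SE 0.21, adjusted p = 0.0012) against 0.68 in control mice (difference 0.80, 95% interval 0.08 to 1.52, unadjusted p = 0.032, adjusted p = 0.93).

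Lipid synthesis fell in part. Of 33 sterol and fatty acid genes 7 were lower and 1 higher (median -0.23; 4 lower without mouse 1), and in control mice 8 were lower (median -0.39). Fads2, a fatty acid desaturase, went from 1358, 1161, 972 and 1024 to 262, 332, 213 and 169 (log2 difference -2.24, SE 0.21, adjusted p = 7.5e-05), and Sqle, of cholesterol synthesis, fell by 1.24 (SE 0.20, adjusted p = 0.0024). Among amino acid and one-carbon genes 1 of 27 was higher and 2 lower (median -0.11; 4 lower without mouse 4, and 2 higher without mouse 3). Trib3, a stress-induced pseudokinase, fell by 3.11 (SE 0.40, adjusted p = 5.8e-04) and Phgdh, the first enzyme of serine synthesis, by 0.83 (SE 0.14, adjusted p = 0.0041), while Slc1a5, a glutamine transporter, rose by 1.00 (SE 0.15, adjusted p = 0.0016). Glycolysis had 2 of 24 higher and 3 lower (median -0.28; 0 higher by limma without mouse 2 or control mouse 3, 1 without mouse 1 or control mouse 1 or 2, and 1 lower without mouse 3), with Pdk1, which holds pyruvate from the mitochondrion, lower by 1.18 on the log2 scale (SE 0.18, adjusted p = 0.0017). Oxidative phosphorylation had 0 of 77 higher by limma and 3 lower (median -0.39, and -1.08 in mouse 4; 0 lower without mouse 1, 1 without mouse 2 or 3 or any control mouse, and 2 higher without mouse 4). For each of these lists the share over all genes was 4.88% higher and 4.67% lower. The 3 lower oxidative phosphorylation genes were near that share.

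Of 36 endoplasmic reticulum genes 3 were higher and 3 lower (median -0.19; 0 lower without mouse 1 or 2 or control mouse 1 or 2, and 1 without control mouse 3). Herpud1, a stress-induced membrane protein, rose by 1.31 (SE 0.22, adjusted p = 0.0035). Of 16 BCL2 family genes 3 were lower (median -0.22; 1 lower without mouse 1, and 1 higher without mouse 1 or 4), with Bok, a proapoptotic member, from 1189.7, 1107, 471 and 2145 to 89.4, 141, 101 and 64.9 (log2 difference -3.48, SE 0.38, adjusted p = 1.7e-04). Of 21 immediate early genes 3 were higher and 2 lower (median -0.02; 0 lower without mouse 1, and 1 without mouse 2 or control mouse 1), with Fos up by 1.58 (SE 0.24, adjusted p = 0.0016) and widely spread, at 379 to 2783 and 1217 to 6599. Here too the share over all genes was 4.88% higher and 4.67% lower.

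Markers of further cell types had summed counts that overlapped between stages. They were 1537 to 3319 and 1950 to 2305 for erythroid cells (0 of 3 called by limma), 1879.5 to 3464 and 2426 to 3357 for T and NK cells (1 of 9 lower), 7259 to 10414 and 8319.6 to 10408 for plasmacytoid dendritic cells (2 of 7 higher; 1 without mouse 1, 2 or 3 or control mouse 1 or 3, and 1 lower without mouse 4) and 2428 to 3349 and 2426 to 3540.4 for stem and multipotent progenitors (3 of 8 lower and 1 higher; 0 higher by limma without mouse 1, 2 or 3 or control mouse 1). The sum for stem and multipotent progenitors mixed opposite moves. Its largest part in each library was Cd48, the 1 member that was higher. Of the 8 tested members 1 had a positive difference, and the list median was -1.43 (log2). Its members Flt3 and Meis1 fell as given above. Stroma and endothelium were at 858 to 2070.1 and 2329 to 4001 (1 of 5 higher), with no overlap. Nearly all of this sum was Pecam1, at 826.2 to 2034 and 2307 to 3961 counts. No other member exceeded 48.08 counts in any library, so the sum describes Pecam1 rather than the list. The 10 B lineage markers were at 80841 to 119370 and 86263 to 98344 (2 higher and 2 lower).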
